A study of Drosophila melanogaster with 6 samples.

Results

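Aminoacyl-tRNA synthetases are the enzymes that attach each amino acid to its own tRNA. The genes were taken by name, as every gene of the deposited tables whose symbol is an amino acid code followed by RS, with or without the ending -m that marks the mitochondrial enzyme. This gave 35 of 23932 genes, 20 without the ending (called cytosolic here) and 15 mitochondrial. All 35 passed the filter on low counts, which 8302 genes of the tables passed.

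The RNA came from Drosophila melanogaster S2R+ cells, an established line of embryonic origin grown in serum-supplemented Schneider's medium. Total RNA was depleted of ribosomal RNA and read by TGIRT-seq, whose reverse transcriptase, from a group II intron of a heat-loving bacterium, reads through structured RNA, so that tRNAs and mRNAs are measured in 1 library. All cells received double-stranded RNA. In 3 libraries it was directed at lacZ, a bacterial gene (dsLacZ, the control), and in 3 at Fib (dsFib), which encodes Fibrillarin, the methyltransferase of box C/D small nucleolar RNA particles. Whether libraries of 1 group came from separate cultures is not in the labels. The p-values therefore rest on the spread among these libraries, which could be technical. The design compares gene expression between these groups, and the comparison below asks how the mRNAs of the charging enzymes stood in each.

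In the cytosol, each enzyme pairs 1 amino acid with its tRNAs, and errors of pairing are cleared by editing sites in several of the enzymes. The enzymes fall into 2 unrelated families, class I and class II, which differ in the fold of the catalytic domain. Several cytosolic enzymes sit in a multisynthetase complex held together by scaffold proteins named AIMP. Mitochondria carry their own tRNAs, encoded in mitochondrial DNA, but the enzymes that charge them are made from nuclear genes and imported. In animals some amino acids have 1 gene that serves both places, as is known for GlyRS and LysRS in humans, and Gln-tRNA of mitochondria is made from Glu-tRNA by the amidotransferase GatCAB. The rule found no -m gene for Gln, Gly, His, Lys or Thr.

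The libraries held 11695250 to 15172052 counts, of which the 35 genes took 0.316% to 0.370%. The lowest count of a synthetase gene in a library was 75 and the highest 10450. Fib, the targeted gene, went against the label: it stood at 213.9, 257.4 and 227.4 CPM in dsLacZ and at 1312, 954.9 and 994.3 CPM in the libraries labelled dsFib (log2 fold change 2.22, SE 0.15, adjusted p = 0.00103). Whether reads of the added double-stranded RNA were counted as Fib, or the labels are exchanged, was not tested. An exchange would turn every direction given here. Higher and lower are used below for the libraries labelled dsFib relative to dsLacZ. One control library stood apart: in dsLacZ replicate 2, nuclear tRNA genes took 18.3% of the counts, against 10.8% to 15.3% in the other 5 libraries. The 10 plasmatocyte markers summed to 222.2 to 258.0 CPM in dsLacZ and 258.2 to 308.7 CPM in dsFib, without overlap. Of these, srp, ush, Pxn, Col4a1, vkg and Ppn were each above 20 CPM in every library, and NimC1 and Sr-CI were below 1 CPM. Hml was at 3.36 to 7.96 CPM in dsLacZ and 9.83 to 14.2 CPM in dsFib, and eater at 0.168 to 1.15 CPM over the 6 libraries. The part of these markers in the synthetase values was not tested. Markers of fat body summed to 0.146 CPM or less and those of muscle to 2.74 CPM or less. Of the neuronal markers elav stood at 25.4 to 30.0 CPM with brp and nSyb at 2.18 CPM or less, and of the ovarian markers fs(1)Yb stood at 37.6 to 57.6 CPM with tj below 1 CPM. Germline markers summed to 7.47 to 21.2 CPM, mostly bam.

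The levels of the genes, compared per length as the TPM of the deposited tables, spanned 56.1-fold from the highest to the lowest mean over 6 libraries. TPM is scaled to a total that includes the tRNAs, and most of the genes had their lowest TPM in dsLacZ replicate 2, so TPM is used here to order genes within a library and not to compare groups. AlaRS, which charges alanine and is known for its editing of mischarged tRNA, was first in all 6 libraries, with 93.7, 66.4 and 83.7 TPM in dsLacZ and 79.3, 87.4 and 83.2 TPM in dsFib. HisRS and ThrRS followed in that order in all 6 libraries. HisRS had means of 61.0 and 56.3 TPM in dsLacZ and dsFib, and ThrRS of 58.3 and 51.7 TPM. AsnRS and LysRS followed with means of 44.1 and 39.2 TPM over the 6 libraries, AsnRS above LysRS in 5 of 6 libraries. Together these 5 genes held 46.8% to 49.8% of the summed TPM of all 35 genes, depending on the library. GlnRS, IleRS, TrpRS, SerRS and GlyRS had means over the 6 libraries of 30.8, 26.6, 25.1, 24.2 and 20.7 TPM. Below them, alpha-PheRS had a mean of 16.8 TPM, ArgRS of 15.6 TPM, MetRS of 12.1 TPM, CysRS of 11.8 TPM, AspRS of 9.99 TPM, beta-PheRS of 9.14 TPM and TyrRS of 7.39 TPM. Neighbours in this stretch of the order often changed places: IleRS was above TrpRS in 4 of 6 libraries, and MetRS above CysRS in 2 of 6. At the low end of the cytosolic genes were LeuRS with 5.31 TPM, the bifunctional GluProRS, which charges both glutamate and proline, with 4.38 TPM, and ValRS. ValRS was the lowest by its mean and in 5 of 6 libraries, while GluProRS was the lowest in dsLacZ replicate 2. ValRS stood at 3.86, 3.15 and 3.17 TPM in dsLacZ and 3.54, 4.18 and 2.99 TPM in dsFib.

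Genes of mitochondrial enzymes lay lower as a class. The median of their mean levels was 4.13 TPM, against 18.8 TPM for the cytosolic genes, and they made up 13.2% ± 0.83 of the summed TPM in dsLacZ and 13.0% ± 0.424 in dsFib (mean ± SD, n = 3). AlaRS alone made up 13.7% ± 0.692 and 14.9% ± 0.683. The genes for Gly, His, Lys and Thr, for which the rule found no -m gene, count as cytosolic here. Whether any of them serves both places was not tested, so the mitochondrial share covers the -m genes alone. The classes overlapped: PheRS-m, the highest mitochondrial gene, stood at 15.8, 9.98 and 15.8 TPM in dsLacZ and 12.4, 14.2 and 12.5 TPM in dsFib. LeuRS-m and AspRS-m followed, with dsLacZ means of 10.0 and 9.14 TPM, and TrpRS-m with 8.48 TPM. SerRS-m, TyrRS-m, CysRS-m and ProRS-m had means over the 6 libraries of 5.47, 4.88, 4.15 and 4.13 TPM. AlaRS-m, MetRS-m, AsnRS-m and GluRS-m lay at 3.76, 3.54, 2.44 and 2.15 TPM, and ValRS-m and IleRS-m at 1.74 and 1.74 TPM. ArgRS-m was the lowest in 4 of 6 libraries, with 1.64, 1.51 and 1.94 TPM in dsLacZ and 1.42, 1.27 and 1.03 TPM in dsFib, and IleRS-m was the lowest in the other 2.

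**Figure D1:**
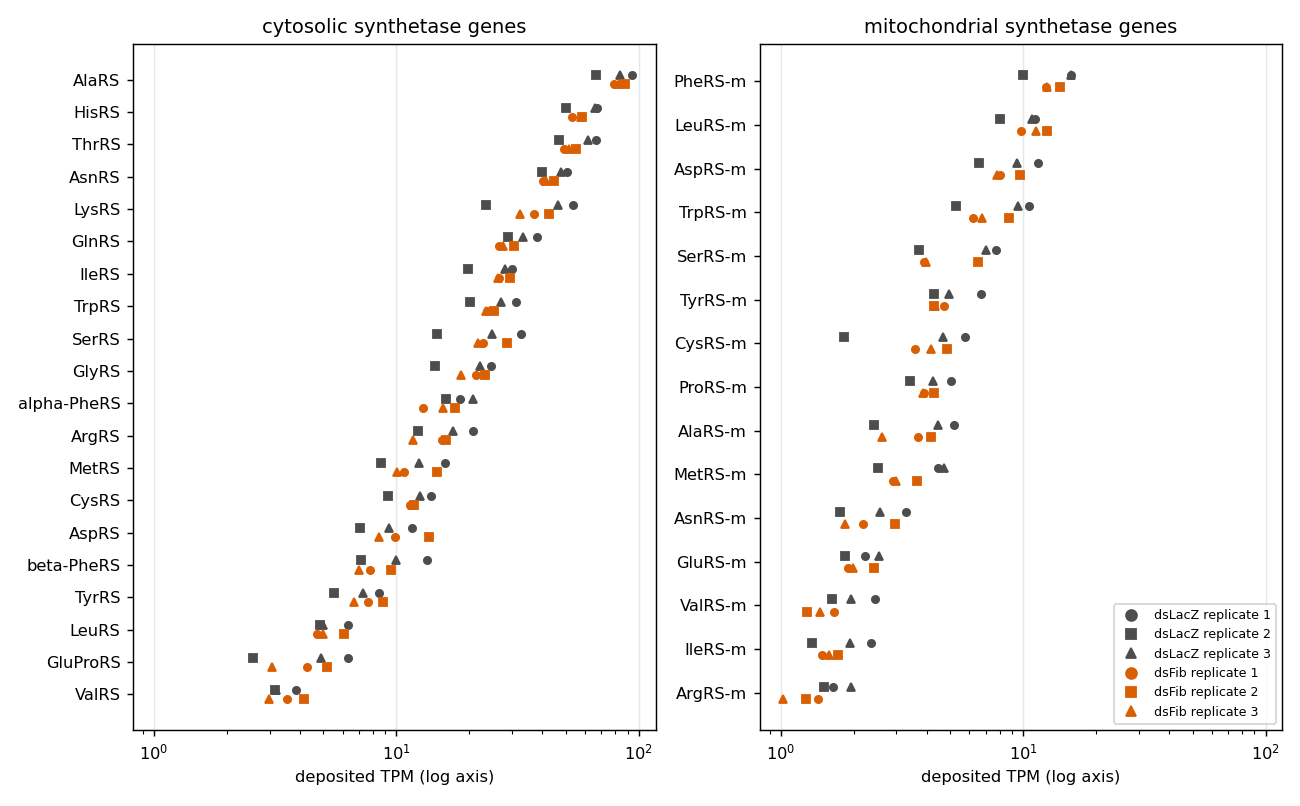
Deposited TPM (log axis) of the 20 cytosolic and 15 mitochondrial synthetase genes in each of 6 libraries, genes ordered by their mean, points offset by group. AlaRS, HisRS and ThrRS lead in every library, and the squares in grey, dsLacZ replicate 2, lie to the left for most genes.

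When the 2 enzymes for the same amino acid were set side by side within each library, the balance ran from a large cytosolic excess to a mitochondrial one. For alanine the TPM of the cytosolic gene was 18.0 to 31.8 times that of the mitochondrial gene, for asparagine 15.1 to 22.8 times, for isoleucine 12.6 to 17.9 times and for arginine 8.13 to 12.7 times. Serine, methionine, tryptophan and cysteine had median ratios of 4.33, 3.49, 3.20 and 2.73. The ratio of GluProRS to GluRS-m had a median of 2.02 and that of ValRS to ValRS-m 2.00, and TyrRS over TyrRS-m had 1.51, each above 1 in all 6 libraries. Aspartate was close to even, with ratios of 0.991 to 1.41, and GluProRS over ProRS-m ran from 0.756 to 1.25, above 1 in 4 of 6 libraries.

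For leucine the mitochondrial gene was the higher one in every library. LeuRS, a member of the multisynthetase complex, stood at 6.30, 4.85 and 4.97 TPM in dsLacZ and 4.70, 6.07 and 4.98 TPM in dsFib. LeuRS-m stood at 11.2, 8.04 and 10.9 TPM and at 9.79, 12.5 and 11.3 TPM. The ratio of LeuRS to LeuRS-m was thus 0.441 to 0.603, and the groups overlapped. For phenylalanine the cytosolic enzyme is built from 2 kinds of subunit, and PheRS-m is a single chain. The level of beta-PheRS was 0.562 to 0.850 times that of PheRS-m, and that of alpha-PheRS 1.04 to 1.60 times. The mRNAs of the subunits, which are joined in equal numbers in the enzyme, were not equal: alpha-PheRS over beta-PheRS was 1.37 to 2.24, above 1 in 6 of 6 libraries. Since a ratio within a library does not depend on scaling, the 17 ratios were also set against the groups. For 5 of them, all higher in dsFib, the groups did not overlap. TyrRS over TyrRS-m was 1.26, 1.29 and 1.47 in dsLacZ and 1.61, 2.05 and 1.55 in dsFib. ValRS over ValRS-m was 1.58, 1.93 and 1.63 against 2.14, 3.24 and 2.06. IleRS over IleRS-m was 12.6, 14.6 and 14.5 against 17.9, 17.1 and 16.6. SerRS over SerRS-m and AspRS over AspRS-m were the others, the last by a margin of less than 0.01. These ratios were singled out after their values were seen. A two-sided exact permutation test of 3 against 3 libraries cannot go below 0.1, which these 5 ratios had (adjusted p over the 17 ratios of 0.34), so it could not pass the threshold whatever the values. The share of other gene pairs without overlap was not computed, and the 17 ratios share genes and libraries. The levels compared in them depend on the gene lengths behind TPM, though the order of libraries does not. With exon lengths of the annotation in their place the median for leucine was 0.464 and for the PheRS subunits 1.96, while those for methionine, serine and arginine went from 3.49 to 8.09, from 4.33 to 7.47 and from 11.2 to 15.9.

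**Figure D2:**
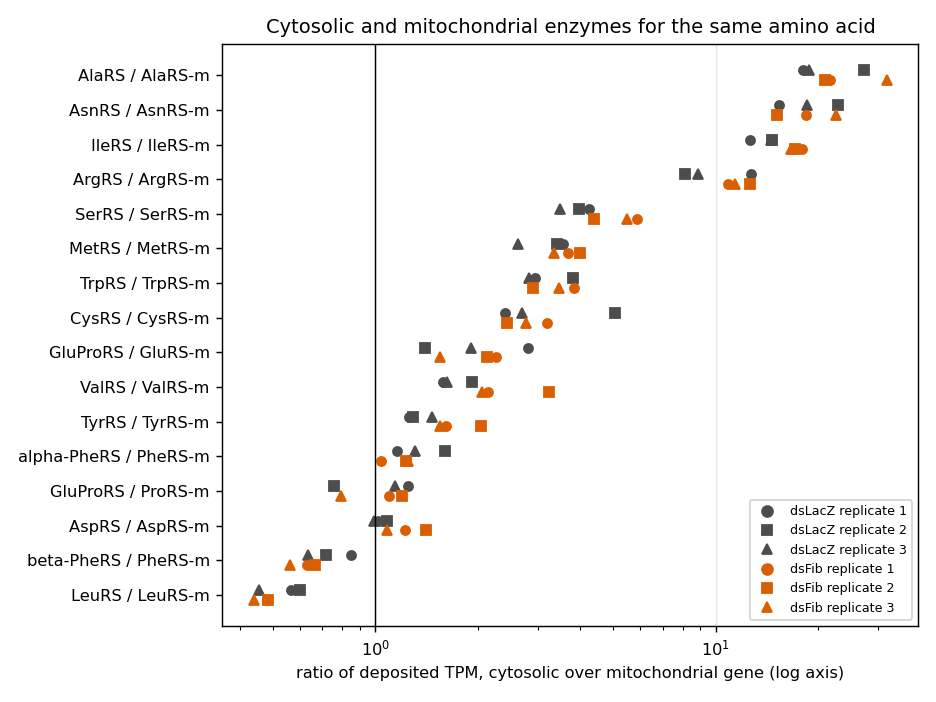
Ratio of the deposited TPM of the cytosolic gene to that of the mitochondrial gene for the same amino acid (log axis), 1 point per library, colour by group, with a line at 1. LeuRS over LeuRS-m and beta-PheRS over PheRS-m lie below 1 in all 6 libraries, and AlaRS over AlaRS-m lies at 18.0 or more.

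Between the groups, none of the 35 synthetase genes passed the test. Over the whole table edgeR called 75 of 8302 genes, or 0.903% (0.53% higher and 0.373% lower), and of the synthetase genes 0 of 20 cytosolic and 0 of 15 mitochondrial. The smallest adjusted p was 0.293. Among the 5352 protein-coding genes within the same range of mean CPM it called 0.897%. DESeq2, which called 3.85% of all genes (2.28% higher and 1.58% lower), and limma-voom, which called 0.807% (0.482% higher and 0.325% lower), also called 0 of 35. At an unadjusted p of 0.05, 2 genes were higher and 0 lower, or 5.71% of the 35, against 15.9% of all genes tested (7.67% higher and 8.26% lower) and 17.7% of those protein-coding genes. Log2 fold changes ran from -0.377 to 0.286, with a median size, whatever the sign, of 0.116, against 0.191 over all genes tested and 0.154 over those protein-coding genes.

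A p that misses the threshold does not show that levels were alike, so the intervals are given. The 95% interval of the fold change, not adjusted for the number of genes, lay within 1.5-fold in either direction for all 20 cytosolic genes and for 11 of 15 mitochondrial ones. That is 88.6% of the 35, against 46.6% of all genes tested and 66.2% of the protein-coding genes in the same range of CPM. The exceptions were SerRS-m, CysRS-m, ValRS-m and ArgRS-m, and for all 35 the interval lay within 2-fold, as it did for 75.4% of all genes tested. Over the cytosolic genes the outermost bounds were 0.699-fold and 1.48-fold, and over the mitochondrial genes 0.528-fold and 1.70-fold. The median SE of the log2 fold change was 0.111 over the cytosolic and 0.153 over the mitochondrial genes. It was 0.136 over the protein-coding genes in the same range of CPM, which share that range but not the distribution of levels within it. The part of level in the shares above was not tested. The controls also differed among themselves: the highest dsLacZ library exceeded the lowest by more than the fitted fold between groups for 15 of 20 cytosolic and 12 of 15 mitochondrial genes, and for 77.7% of all genes tested. The range of 3 single libraries is wider than the error of a group mean, so this describes the spread and tests nothing.

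**Figure D3:**
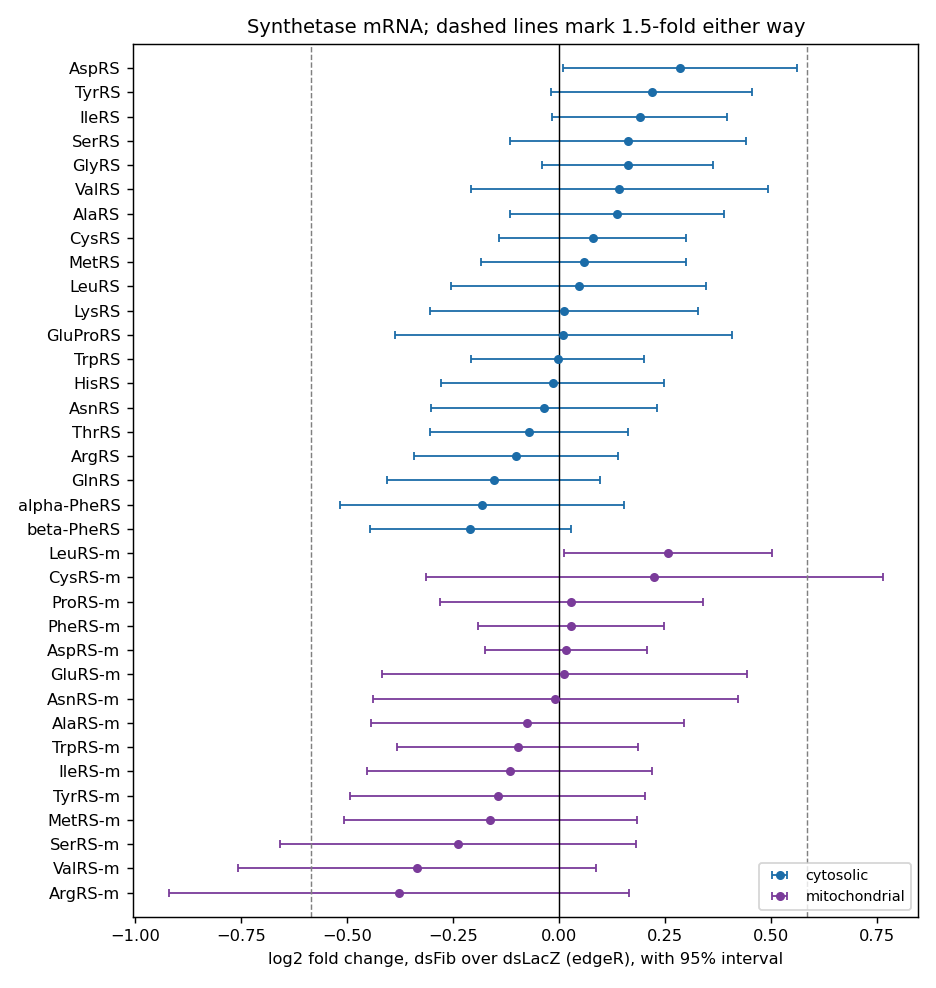
Log2 fold change of each synthetase gene, libraries labelled dsFib over dsLacZ, with its 95% interval from edgeR (3 libraries per group), cytosolic genes above and mitochondrial genes below, dashed lines at 1.5-fold. All points lie between -0.377 and 0.286, and the widest intervals belong to ArgRS-m and CysRS-m.

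Among the cytosolic genes, 12 had a log2 fold change above 0 and 8 below, with a median of 0.03 against -0.01 over all genes tested. The summed level was 2883, 3119.5 and 2962 CPM in dsLacZ and 3057, 2992 and 3169 CPM in dsFib, so the groups overlapped. All CPM values given, above and below, are scaled by TMM. Differences between libraries are read from them for 1 gene or 1 sum at a time. The groups did not overlap for 5 of the 20, 4 of them higher and 1 lower in dsFib, where 23.2% of all genes tested had no overlap (11.0% higher and 12.1% lower). In RNA from many cells, fewer cells of a kind and less RNA per cell cannot be told apart.

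AspRS (2R, 12877004 to 12883168, plus strand, dm6), which belongs to the multisynthetase complex, had the smallest p of the cytosolic genes. It stood at 44.7, 44.3 and 41.1 CPM in dsLacZ and at 51.5, 61.1 and 46.0 CPM in dsFib. All 3 dsFib libraries lay above the controls, with replicate 2 the highest, and the fold was 1.22 (95% interval 1.01 to 1.48, adjusted p = 0.297). On the opposite strand, Nmda1, with a mean of 287 CPM, overlaps 5.6% of its exons, and asRNA:CR45141, with a mean of 0.0731 CPM, 63.9%. Their part in the counts of AspRS was not tested. TyrRS (3L, 16417349 to 16419302, minus strand), whose human counterpart is mutated in an inherited neuropathy, stood at 29.0, 31.1 and 28.9 CPM and at 35.6, 35.5 and 32.5 CPM. Again the groups did not overlap, and the fold was 1.16 (0.987 to 1.37, adjusted p = 0.349).

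IleRS (3L, 22288665 to 22292810, plus strand), also in the complex, stood at 226.1, 244.4 and 244.7 CPM in dsLacZ and at 272.6, 261.3 and 282 CPM in dsFib, a fold of 1.14 (0.988 to 1.32, adjusted p = 0.352). It was the single gene higher without overlap both with TMM and with scaling by total counts. GlyRS (3L, 15095142 to 15097686, plus strand), another neuropathy gene in humans, stood at 117.2, 113.1 and 121.1 CPM and at 138.6, 129.6 and 125.2 CPM, a fold of 1.12 (0.973 to 1.29, adjusted p = 0.411). The distance between its groups, from 121.1 to 125.2 CPM, was smaller than the range within either group.

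Both subunits of the phenylalanine enzyme lay below 0. The beta-PheRS gene (3R, 24250460 to 24252679, minus strand) stood at 51.0, 44.5 and 43.8 CPM in dsLacZ and at 40.3, 42.3 and 37.9 CPM in dsFib, lower in dsFib without overlap, a fold of 0.865 (0.734 to 1.02, adjusted p = 0.371). The alpha-PheRS gene, on X, stood at 60.6, 86.4 and 78.8 CPM and at 58.0, 67.7 and 73.1 CPM, with overlap, a fold of 0.882 (0.699 to 1.11, adjusted p = 0.605).

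GlnRS (3R, 25263267 to 25265721, minus strand) stood at 181.8, 224.9 and 183.4 CPM and at 172.5, 171.7 and 186 CPM. Its control range was set by dsLacZ replicate 2, and the fold was 0.899 (0.755 to 1.07, adjusted p = 0.547). For the most abundant gene, AlaRS (2L, 8378262 to 8381764, minus strand), the levels were 574.3, 664.5 and 590.4 CPM and 661.5, 627.6 and 723 CPM, with overlap, a fold of 1.10 (0.924 to 1.31, adjusted p = 0.604). For the least abundant one, ValRS (2R, 13198850 to 13202709, plus strand), they were 24.9, 33.2 and 23.6 CPM and 31.1, 31.6 and 27.4 CPM, a fold of 1.10 (0.866 to 1.41, adjusted p = 0.708). In ValRS too the highest value was that of dsLacZ replicate 2.

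The other 11 cytosolic genes (SerRS, ArgRS, CysRS, ThrRS, MetRS, LeuRS, AsnRS, HisRS, LysRS, GluProRS and TrpRS) overlapped between the groups, and their log2 fold changes ran from -0.10 for ArgRS to 0.16 for SerRS. HisRS, ThrRS and AsnRS, which are among the 4 most abundant, had -0.01, -0.07 and -0.03. The steadiest control values were those of ArgRS, with a coefficient of variation of 2.56%, and the widest those of GluProRS with 19.9%. GluProRS stood at 66.2, 44.2 and 58.8 CPM in dsLacZ and at 61.3, 63.6 and 45.7 CPM in dsFib, so 1 library of each group was low. For the 8 enzymes of the multisynthetase complex the median was 0.03, with 0 past the edgeR test, 1 higher at an unadjusted p of 0.05 (AspRS), and 0 by DESeq2 or limma-voom. In the 9 cytosolic genes of class I it was 0.06 and in the 10 of class II, with alpha-PheRS and beta-PheRS counted apart, -0.001. The bifunctional GluProRS was placed in neither. In both classes 0 were called by edgeR, DESeq2 or limma-voom, and at an unadjusted p of 0.05 it was again AspRS alone, of class II.

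Among the mitochondrial genes, 6 had a log2 fold change above 0 and 9 below, with a median of -0.07. Their summed level was 427, 409 and 440.5 CPM in dsLacZ and 414, 434 and 434 CPM in dsFib. The log2 ratio of mitochondrial to cytosolic summed CPM, which is free of library scaling, was -2.75, -2.93 and -2.75 in dsLacZ and -2.88, -2.79 and -2.87 in dsFib. The groups overlapped, with means of -2.81 ± 0.103 and -2.85 ± 0.0529 (SD, n = 3), and dsLacZ replicate 2 was the lowest of the 6.

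LeuRS-m (3L, 4825853 to 4829038, plus strand) was the mitochondrial gene with the smallest p, and the one whose groups did not overlap. It stood at 65.4, 77.1 and 73.8 CPM in dsLacZ and at 78.2, 86.1 and 94.0 CPM in dsFib. The fold was 1.20 (95% interval 1.01 to 1.42, adjusted p = 0.293), and the gap between the groups, from 77.1 to 78.2 CPM, was narrow. Its cytosolic counterpart LeuRS stood at 46.3, 58.2 and 42.1 CPM and at 47.0, 52.3 and 52.0 CPM, a fold of 1.03 (0.838 to 1.27, adjusted p = 0.907).

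The lowest fitted folds were those of genes with few counts, and did not pass the test. ArgRS-m (3R, 7887045 to 7890150, plus strand) stood at 6.14, 9.23 and 8.38 CPM and at 7.26, 5.59 and 5.47 CPM, a fold of 0.770 (0.528 to 1.12, adjusted p = 0.480). The groups overlapped through dsLacZ replicate 1. An exon of mRpS9, a mitochondrial ribosomal protein gene with a mean of 50.9 CPM, overlaps 11.8% of its exons on the opposite strand, and reads of the 2 genes cannot be told apart there unless the counting used strand. ValRS-m (3L, 8961274 to 8964769, minus strand) stood at 14.9, 16.3 and 13.7 CPM and at 13.8, 9.24 and 12.6 CPM, a fold of 0.793 (0.592 to 1.06, adjusted p = 0.419). Its groups touched at 13.7 and 13.8 CPM, and with scaling by total counts they did not overlap.

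SerRS-m (3R, 15340667 to 15343218, plus strand) stood at 22.2, 17.5 and 23.3 CPM in dsLacZ and at 15.2, 21.9 and 16.2 CPM in dsFib, a fold of 0.847 (0.634 to 1.13, adjusted p = 0.581). Low values thus lay in both groups. MetRS-m (3R, 14249043 to 14259991, minus strand), whose loss in flies causes neurodegeneration, stood at 16.2, 14.9 and 19.5 CPM and at 14.3, 15.5 and 15.4 CPM, a fold of 0.894 (0.703 to 1.14, adjusted p = 0.662). CysRS-m (2R, 14159096 to 14161262, minus strand) stood at 20.3, 10.5 and 18.9 CPM and at 17.2, 20.1 and 20.9 CPM, a fold of 1.17 (0.804 to 1.70, adjusted p = 0.701). Without dsLacZ replicate 2, which holds its lowest value, its log2 fold change was -0.01.

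PheRS-m (2R, 13968308 to 13969902, plus strand), the most abundant of the mitochondrial genes, was among the steadiest, at 46.8, 48.3 and 53.9 CPM and at 49.99, 49.3 and 52.6 CPM, a fold of 1.02 (0.876 to 1.19, adjusted p = 0.924). AspRS-m varied less still, with coefficients of variation of 3.77% in dsLacZ and 1.69% in dsFib, and a fold of 1.01 (0.886 to 1.16). The other 7 (TyrRS-m, IleRS-m, TrpRS-m, AlaRS-m, ProRS-m, GluRS-m and AsnRS-m) overlapped between the groups and had log2 fold changes from -0.14 for TyrRS-m to 0.03 for ProRS-m. By class, the median was -0.12 over the 9 mitochondrial genes of class I and 0.004 over the 6 of class II, with 0 called by edgeR, DESeq2 or limma-voom in either and LeuRS-m, of class I, the single gene at an unadjusted p of 0.05. Whether the classes differ was not tested.

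Which genes had groups without overlap depended on scaling. With TMM they were 6 of 35 genes, or 17.1%, against 23.2% of all genes tested and 25.8% of the protein-coding genes in the same range of CPM. With scaling by total counts they were IleRS, higher, and GlnRS, AsnRS and ValRS-m, lower, against 20.3% of all genes tested. The control library that stood apart in its tRNA share was the highest or the lowest of the 6 for 19 of the 35 genes: it was the highest for 12, among them AsnRS, HisRS, ThrRS, GlnRS and LeuRS, and the lowest for 7, among them LysRS, SerRS and CysRS-m. LysRS, for instance, stood at 145.7 CPM in that library against 204.5 and 204 CPM in the other controls and 192.2, 191 and 176 CPM in dsFib. The part of the tRNA share in these values was not tested. Each of the other libraries was the highest for 3 to 6 of the 35 genes and the lowest for 5 to 7. How often dsLacZ replicate 2 was at an extreme over all genes tested was not computed. Without this library 0 of 35 genes passed the edgeR test and 4 were at an unadjusted p of 0.05, LeuRS-m, ValRS, IleRS and AspRS, all higher, with 17.8% of all genes at that level.

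The substrates of the enzymes were measured in the same libraries. Nuclear tRNAs summed per amino acid ranged in dsLacZ from 148 CPM for tyrosine and 242 CPM for tryptophan to 19440 CPM for glutamine and 19920 CPM for glutamate, whose enzyme genes had means of 7.39, 25.1, 30.8 and 4.38 TPM over the 6 libraries. Across 20 amino acids the tRNA sum and the enzyme TPM had a Spearman rho of 0.21, and across the 15 mitochondrial pairs of -0.064, as a description of these libraries, in which the points share depth and in which recovery of a tRNA can differ by its modifications. Among the 20, GluProRS stood for both glutamate and proline, and beta-PheRS alone for phenylalanine. For every one of the 21 nuclear sums, selenocysteine included, the groups overlapped when all 6 libraries were used. Without dsLacZ replicate 2, left out after seeing the data, all 3 dsFib values lay above both remaining controls for 20 of the 21 nuclear sums, aspartate being the exception, and for 15 of the 20 mitochondrial ones. The nuclear threonine sum, for example, was 3833, 9754 and 5550 CPM in dsLacZ and 9029, 7515 and 8675 CPM in dsFib. The tRNA share described above had the same order, at 13.4% to 15.3% for dsFib and at 10.8% and 11.1% for the remaining controls. The 20 nuclear sums are parts of that share and are not 20 separate observations. How many of all genes tested lacked overlap without dsLacZ replicate 2 was not computed. With all 6 libraries, 1 of 20 mitochondrial sums was higher in dsFib without overlap, as were 11.0% of all genes tested. It was that of the phenylalanine tRNA, at 85.1, 147 and 109 CPM against 222, 161 and 156 CPM, beside PheRS-m with its fold of 1.02.

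Genes that work around the enzymes were taken from 4 lists. Of the partners of charging, 9 of 11 were tested. The scaffold genes AIMP1, AIMP2 and AIMP3 had log2 fold changes of 0.09, -0.02 and 0.10, and Slimp, a relative of SerRS-m in flies, 0.10. SecS, an enzyme on the path from seryl-tRNA made by SerRS to selenocysteinyl-tRNA, was the single gene that passed in these lists. Over all genes tested edgeR called 0.903% (0.53% higher and 0.373% lower) and DESeq2 3.85%. The level of SecS is given next. It fell from 16.4, 20.0 and 21.2 CPM to 9.38, 10.1 and 10.6 CPM (log2 fold change -0.93, SE 0.157, adjusted p = 0.0383), lower in 3 of 3 libraries. The log2 fold change stayed between -1.02 and -0.84 in all settings run. The adjusted p was above 0.05 without dsLacZ replicate 3 or without any 1 of the dsFib libraries (0.144 to 0.231). It was also above 0.05 with the replicate block (0.158), with total counts alone (0.0676) and in limma-voom (0.0547). In DESeq2 it was 3.47e-04. SerRS itself stood at 121.8, 89.3 and 105.5 CPM and at 115.5, 124.6 and 114.6 CPM, with overlap. GatB, a subunit of the amidotransferase, stood at 2.35 CPM in dsLacZ replicate 2 against 15.1 to 25.6 CPM in the other 5 libraries. GatC had no count in any library, which does not show that its RNA was absent. Whether its reads were counted under another gene was not tested.

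The factors that deliver charged tRNA to the ribosome showed a wider range than the enzymes, with a median log2 fold change of 0.22 over 8 genes and 0 past the edgeR test (with an unadjusted p under 0.05, 3 of 8 were higher, where 7.67% of all genes tested were higher and 8.26% lower), and 0 in DESeq2 or limma-voom. The gene of the main elongation factor, eEF1alpha1, stood at 3121, 1399 and 2808 CPM in dsLacZ and at 4183, 4489 and 3805 CPM in dsFib, without overlap and with dsLacZ replicate 2 far below the rest (log2 fold change 0.77, adjusted p = 0.215). The mitochondrial elongation factor genes of this list, mEFTu1, mEFTu2 and mEFTs, had 0.15, -0.13 and -0.32. Of 10 genes of the response to amino acid shortage, 9 were tested and 0 passed in edgeR, DESeq2 or limma-voom (with an unadjusted p under 0.05, 2 were higher and 2 lower). Here AsnS, asparagine synthetase, which makes the amino acid and does not charge tRNA, had -0.37 (128.3, 152 and 131.1 CPM to 103.3, 100.9 and 114.4 CPM, adjusted p = 0.149), and crc, the fly ATF4, had 0.43 (94.7, 67.0 and 80.1 CPM to 113.2, 110.1 and 102.8 CPM, adjusted p = 0.170). The groups did not overlap for either, in opposite directions. Of the 9 tested, 2 were higher without overlap, crc and PEK (0.40, adjusted p = 0.192). Another 2 were lower without overlap, AsnS and trbl (-0.38, adjusted p = 0.209). Over all genes tested, 11.0% were higher and 12.1% lower without overlap. Gcn2, the kinase that senses uncharged tRNA, had 0.22 (adjusted p = 0.390). Of 10 mitochondrial translation factors, 9 were found and tested, with a median of -0.05 and 0 past the edgeR test (with an unadjusted p under 0.05, 1 was lower), and 0 in DESeq2 or limma-voom.

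**Figure D4:**
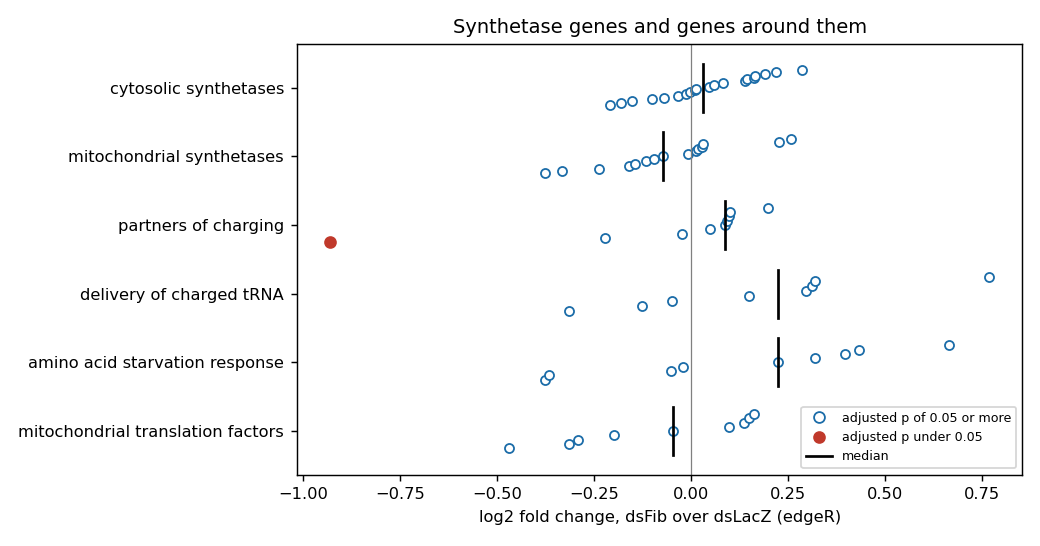
Log2 fold change, libraries labelled dsFib over dsLacZ, of the cytosolic and mitochondrial synthetase genes and of 4 lists of genes around them, 1 point per tested gene, black bars for medians, filled where the adjusted p was under 0.05. SecS at -0.93 is the filled point; mEFTu1 and mEFTs appear in 2 lists.

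The genes are spread over the genome, with 6 on 2L, 8 on 2R, 10 on 3L, 7 on 3R and 4 on X, and the 4 on X (alpha-PheRS, ArgRS, HisRS and LysRS) are all cytosolic. One pair lies side by side: GluRS-m and TyrRS lie 171 bases apart on 3L, both on the minus strand. TyrRS had a log2 fold change of 0.22 and GluRS-m, at 7.38, 9.90 and 9.66 CPM and 8.49, 9.39 and 9.27 CPM, of 0.01. Exons of 16 of the 35 genes overlap an exon of another gene, on the opposite strand for 15 and on the same strand for 2 (AspRS and HisRS), so that values of these genes can hold reads of the neighbour. For HisRS this is 8.91% of its exon length, shared with Bx, which had a mean of 16.5 CPM. For GluRS-m it is 5.59%, shared on the opposite strand with Serinc, which had a mean of 143 CPM.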

How the data were processed

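Total RNA of 6 S2R+ libraries, 3 per group, was depleted of ribosomal RNA and sequenced by TGIRT-seq, per the labels' protocols. The authors deposited, for each library, a table of estimated counts per gene with the CPM and TPM of the same genes, per the file headers. The table names point to the counter CoCo, and dm6, STAR, Bowtie2 and cutadapt 3.4 appear, without their roles, in the submitters' processing notes. For the annotation, filters and use of strand, nothing was given in the labels or headers. The deposited CPM matched the counts divided by their total. Between 7.1% and 9.27% of genes per library had a fractional count (tolerance 1e-06), as when a read is shared among genes.

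Counts were rounded and tested with edgeR 4.0.16 (TMM, filterByExpr, quasi-likelihood test, Benjamini-Hochberg adjustment over 8302 genes, threshold 0.05) in R 4.3.3, with the group as the only term. Levels between libraries are CPM scaled by TMM, and levels between genes are the deposited TPM. The alternatives were DESeq2 1.42.0, limma-voom (limma 3.58.1), other scalings and filters, a block for the replicate number, and fits with 1 library left out. The fit was checked on simulated counts. Positions, exon overlaps and lengths came from Ensembl release 115, in which all 35 genes and 23851 of 23932 genes were found by identifier.

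Every synthetase gene is named with its level. Values per library were set for any gene past the threshold, the 6 genes of each class with the smallest p, the most and least abundant of each class and, in the lists around them, genes past the threshold and the 3 with the smallest p; the other genes given with values per library or singled out in the lists were chosen after their values were seen. The genes and lists were chosen with earlier results of these data known. The 95% intervals of fold changes are not adjusted for the number of genes.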

Additional observations from a re-analysis of the deposited data

How the results depend on the processing

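The number of synthetase genes past the threshold was 0 in all 15 settings, in which the smallest adjusted p among the 35 ran from 0.192 (without dsLacZ replicate 2) to 0.454 (replicate block), while the genes called in the whole table ran from 1 with the replicate block, 2 or 3 without dsLacZ replicate 3, dsFib replicate 1 or dsFib replicate 3, 7 without dsFib replicate 2 and 31 with total counts to 113 without dsLacZ replicate 1, 283 of 13370 with no filter, 310 without dsLacZ replicate 2 and 320 with DESeq2. The median log2 fold change ran from -0.01 to 0.08 over the cytosolic genes and from -0.12 to -0.005 over the mitochondrial ones. The difference in the log2 ratio of mitochondrial to cytosolic level, -0.03, ran from -0.09 to -0.003 with 1 library left out. PheRS-m, at 0.03, was at -0.0111 with total counts, at -0.00045 without dsLacZ replicate 1 and at -0.000272 without dsFib replicate 3 (with 1 library left out, -0.00045 to 0.102), and CysRS-m was at -0.0136 without dsLacZ replicate 2 (with 1 library left out, up to 0.409); the cause was not tested. With the replicate block the log2 fold change of SecS was -0.93, as without it, with an adjusted p of 0.158. Same-numbered libraries had correlations of -0.04, -0.21 and -0.11 in their deviations from the group means, so the numbers were not taken to pair the samples. The TPM ratios with annotation lengths were added after seeing the data. Depth limits the genes with the fewest counts, ArgRS-m and GluRS-m among them.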
